A study of Mus musculus with 36 samples.

Results

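HP1γ, encoded by Cbx3, was inactivated in T cells, and conventional CD4+ T cells (Tconv) of these HP1g KO mice were compared with Tconv of HP1g WT littermates after transfer together with regulatory T cells (Treg). The comparison held 5 of the 36 libraries of the series, namely replicates 1 and 2 of the KO group and replicates 1 to 3 of the WT group. The remaining KO library, replicate 3, was left out for its quality, a choice the authors made too. Both groups carried floxed Hp1g alleles, and KO cells also carried a Cd4-cre transgene, so that the allele is excised in T cells before transfer. Donors were 6 to 12 weeks old and of a mixed 129/Sv and C57BL/6 background. Their naive CD4+ cells were given to irradiated hosts of the B6 strain, together with bone marrow of the host strain and of a semi-allogeneic hybrid strain, and with expanded Treg marked by Thy1.1. At 3 weeks, donor cells negative for Thy1.1 and positive for the T cell receptor chain Vβ6 were sorted from spleen and sequenced. The same cells transferred without Treg, here called Tconv, and naive cells of both genotypes served for reference. The comparison asks how the loss of HP1γ changes the transcriptome of T cells that respond to an allograft in the presence of Treg. The authors state that, at the ratio of Tconv to Treg used, the response of WT cells was not effectively repressed.

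HP1γ is one of the heterochromatin proteins that bind methylated lysine 9 of histone H3 and keep chromatin in a silent state. T cells that meet their antigen for a long time take on a program called exhaustion, in which several inhibitory receptors are expressed together under the control of factors such as TOX. Follicular helper T cells (Tfh), which help B cells, share part of that program, including PD-1 and IL-21, and are directed by BCL6. Th1 cells follow T-bet, respond to IL-12 and IL-18, and produce interferon-γ.

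The 5 libraries held 44937886 to 61773000 estimated counts, and 17177 of 56748 genes passed the filter on low counts. Levels are in CPM, that is, counts scaled to a common library size with TMM factors. Nothing in the labels says that the libraries of a group came from separate mice, so that p-values measure the spread between these libraries, which may be technical. In bulk RNA, fewer cells of a type and less RNA per cell cannot be told apart. Trbv19, the gene segment of Vβ6, made up 83.19% and 84.96% of Trbv transcripts in the KO libraries and 65.3% to 74.1% in the WT libraries, against 8.73% to 9.69% in naive cells of the line. Cd4 was at 829.9 to 1234 CPM in the 5 libraries. Of the 13 genes of CD4+ T cell identity, 6 lay higher (46.2%) and 1 lower in KO without overlap, against 15.3% and 13.9% over all genes tested, and their summed level was 12280 and 10060 CPM in KO and 8382 to 9458 CPM in WT. None of the 13 was called by edgeR or DESeq2, which called 0% and, for genes higher in KO, 2.36% of all genes. Hemoglobin transcripts summed to 5765 CPM in KO replicate 1 and 3281 CPM in WT replicate 1, but to between 106.5 and 190.9 CPM in the other 3 libraries. KO replicate 2 stood apart in another way, with 1.38% of its counts in ribosomal protein genes and 0.888% in mitochondrially encoded genes, against 1.74% to 1.96% and 1.05% to 1.49% in the WT libraries, and these were the lowest shares of all kept libraries of the line. On the log2 CPM of the genes tested, KO replicate 2 correlated at 0.963 with KO replicate 1 and at 0.9697 to 0.9765 with WT libraries. KO replicate 2 was thus closer to each WT library than to KO replicate 1. KO replicate 1 correlated at 0.962 with WT replicate 1 and at 0.944 to 0.945 with WT replicates 2 and 3. What these differences contribute to the results was not tested. The difference is also given below for KO replicate 1 against WT replicate 1 and, separately, for KO replicate 2 against WT replicates 2 and 3, which share no library.

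Cbx3 (ENSMUSG00000029836, GRCm39 chr6:51447082-51460691, plus strand) had 59.8 and 58.3 CPM in KO against 77.7, 79.5 and 100 CPM in WT. Both KO libraries were below all WT libraries, with a log2 fold change of −0.53 ± 0.15 (SE), and the quasi-likelihood test of edgeR gave an adjusted p of 0.260. Which exons the KO allele lacks was not examined, so that a count over the whole gene does not measure how complete the excision was. Cbx1, which encodes HP1β, had 44.0 and 46.6 CPM in KO and 33.9 to 38.2 CPM in WT, while Cbx5, which encodes HP1α, overlapped between the groups. Of 24 genes of HP1 proteins and of H3K9 methylation, all were tested and 0 were called by edgeR or DESeq2.

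With edgeR, 0 of 17177 genes (0%) were called at an adjusted p under 0.05 and an absolute log2 fold change above 1, while 2028 had an unadjusted p under 0.05. DESeq2, on the same genes and libraries, called 406 genes higher (2.36%) and 159 lower (0.926%) in KO. When the spread was estimated over all 17 kept libraries of the line, edgeR called 231 of 18435 genes higher (1.25%) and 76 lower (0.412%), and 285 of these 307 genes were also called by DESeq2. Without any test, both KO libraries lay above all WT libraries for 2628 genes (15.3%) and below them for 2392 genes (13.9%). These shares, and those of DESeq2, are the reference for the counts of each list below. On the same 5 libraries and 17177 genes, edgeR called 30 genes with the replicate number as a block and 66 with replicate 1 set against the other replicates as a block, and it called 181 of 28722 genes when no filter was applied. Without KO replicate 2 it called 362 genes, and without any other single library 0. Because the number of calls in edgeR depended on these choices, and was 0 in the design chosen here, genes are described below by their level in each library, and the number of the 14 alternative fits that called a gene is given beside the edgeR value.

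**Figure D1:**
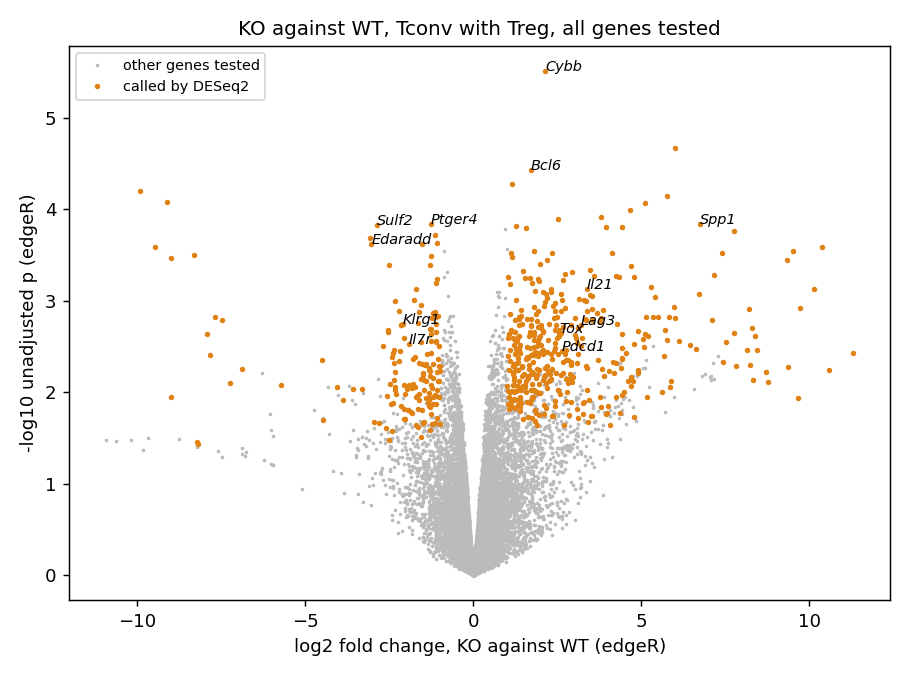
Each point is 1 of 17177 genes, with the edgeR log2 fold change of KO against WT in Tconv with Treg on the x axis and −log10 of the unadjusted edgeR p on the y axis. Orange points are the 406 genes called higher and the 159 called lower by DESeq2, and Cybb has the lowest p.

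Several inhibitory receptors that mark exhausted cells had more transcript in KO than in WT cells, while Klrg1, Cd96, Cd200r1 and Lair1 had less. Pdcd1 (chr1:93966027-93980312, minus strand), which encodes PD-1, had 546 and 175 CPM in KO against 84.4, 59.3 and 31.9 CPM in WT. The groups did not overlap, although KO replicate 1 was far above KO replicate 2, and the log2 fold change was 2.63 ± 0.57 (adjusted p = 0.214 in edgeR, called under 3 of 14 alternatives). Lag3 (chr6:124881320-124888765, minus strand), an inhibitory receptor for MHC class II, had 57.7 and 20.8 CPM against 7.28, 3.03 and 2.55 CPM. Its groups were well apart, with a log2 fold change of 3.20 ± 0.60 (adjusted p = 0.192 in edgeR, called under 5 of 14).

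Havcr2, which encodes TIM-3, had 102 and 17.1 CPM in KO against 10.7, 8.91 and 5.01 CPM in WT. The groups did not overlap, but KO replicate 2 was nearer to the highest WT library than to KO replicate 1. Tigit had 194 and 81.0 CPM against 54.7, 29.9 and 26.9 CPM, and Ctla4 had 676 and 297 CPM against 278, 165 and 213 CPM. Both receptors were thus higher in each KO library, Ctla4 by a narrow margin in replicate 2. Cd200, the ligand of an inhibitory receptor, had 102 and 61.4 CPM against 22.1, 12.6 and 19.1 CPM. It was the member with the lowest p of this list, at a log2 fold change of 2.19 ± 0.30 (adjusted p = 0.150 in edgeR, called under 7 of 14).

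Klrg1, an inhibitory receptor of terminally differentiated effector cells, went the other way, with 9.78 and 15.2 CPM in KO against 57.0, 71.4 and 32.3 CPM in WT. Both KO libraries were below each WT library (log2 fold change −2.09 ± 0.39, adjusted p = 0.192 in edgeR, called under 5 of 14). Of the 16 inhibitory receptors and ligands, 8 lay higher (50%) and 5 lower (31.25%) in KO without overlap, against 15.3% and 13.9% over all genes. DESeq2 called 5 higher (31.25%) and 2 lower (12.5%), against 2.36% and 0.926%, and edgeR called 0. Their median log2 fold change was 0.21, against 0.01 over all genes tested.

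**Figure D2:**
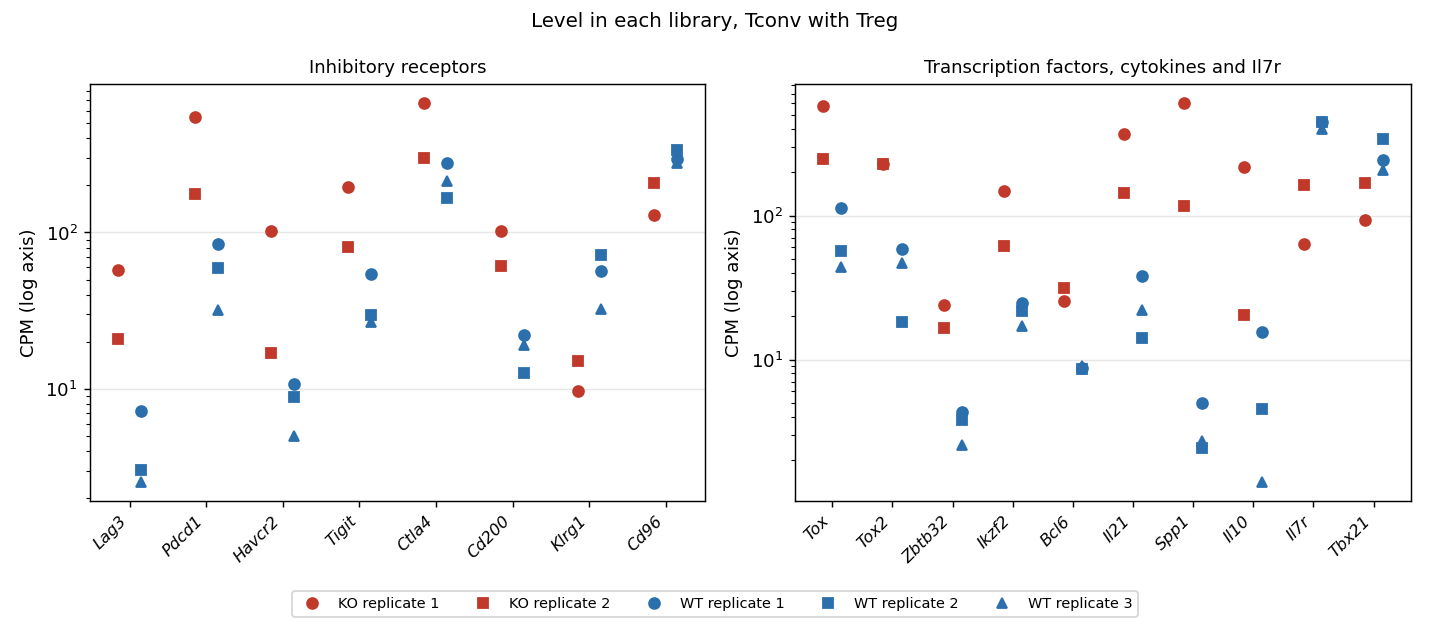
The level of 8 inhibitory receptors (left) and of 10 transcription factor, cytokine and receptor genes (right) is plotted in CPM on a log axis, with 1 point for each of the 2 KO and 3 WT libraries. KO libraries lie above WT libraries for all genes shown but Klrg1, Cd96, Il7r and Tbx21, where they lie below, and circles mark replicate 1.

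The 250 bases before the start of 4 genes that were higher in KO are shown, to give the sequence context of genes that moved together (RefSeq, build GRCm38.p6, 5′ to 3′ on the strand of the gene). They were chosen after their values were seen. Capitals mark the AP-1 motif TGANTCA and the NFAT motif GGAAAA on either strand, the sites of 2 factor families that act downstream of the T cell receptor.
Pdcd1, chr1:94052554-94052803, minus strand: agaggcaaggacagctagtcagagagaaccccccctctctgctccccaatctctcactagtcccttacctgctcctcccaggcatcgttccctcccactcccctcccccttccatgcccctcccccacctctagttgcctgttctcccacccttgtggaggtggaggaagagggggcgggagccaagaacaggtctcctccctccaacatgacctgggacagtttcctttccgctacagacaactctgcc
Havcr2, chr11:46454681-46454930, plus strand: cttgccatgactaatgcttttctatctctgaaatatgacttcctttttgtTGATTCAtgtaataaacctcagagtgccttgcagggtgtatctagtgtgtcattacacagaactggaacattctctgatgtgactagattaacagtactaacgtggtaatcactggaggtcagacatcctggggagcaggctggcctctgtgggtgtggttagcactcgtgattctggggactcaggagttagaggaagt
Il21, chr3:37232637-37232886, minus strand: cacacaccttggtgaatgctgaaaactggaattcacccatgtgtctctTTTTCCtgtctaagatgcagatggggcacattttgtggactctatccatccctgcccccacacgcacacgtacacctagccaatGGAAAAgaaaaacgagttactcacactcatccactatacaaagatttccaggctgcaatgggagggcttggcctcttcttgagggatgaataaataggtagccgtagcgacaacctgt
Spp1, chr5:104434861-104435110, plus strand: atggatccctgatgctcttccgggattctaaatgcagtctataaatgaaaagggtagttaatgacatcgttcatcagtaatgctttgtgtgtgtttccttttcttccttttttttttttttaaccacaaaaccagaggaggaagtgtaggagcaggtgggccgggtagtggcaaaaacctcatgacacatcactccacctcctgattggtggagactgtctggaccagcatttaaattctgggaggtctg

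Havcr2 held 1 AP-1 match and Il21 held 2 NFAT matches, and neither motif occurred in the windows of Pdcd1 and Spp1. Over 27025 RefSeq genes, 6.85% of windows of this length held the AP-1 motif and 20.7% the NFAT motif. Of the 12 genes with the lowest p among those higher in KO, 11 had a window, of which 2 held the AP-1 motif (Bcl2a1a and Cybb) and 4 the NFAT motif. Of the 12 that were lower in KO, 11 had a window too, of which 1 held the AP-1 motif (P2ry10) and 4 the NFAT motif. Lag3 and Tox had no entry.

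Transcription factors of exhaustion were mostly higher in KO cells. Tox (chr4:6686353-6991644, minus strand), a factor required for the exhausted state, had 577 and 248.6 CPM in KO against 112, 56.6 and 44.0 CPM in WT. All KO values were more than the highest WT value, with a log2 fold change of 2.55 ± 0.50 (adjusted p = 0.194 in edgeR, called under 5 of 14). Tox2, its paralog, had 230 and 228 CPM against 58.2, 18.2 and 47.1 CPM, so that the KO libraries were alike for this gene.

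Ikzf2, which encodes Helios, had 147 and 61.4 CPM against 24.5, 21.7 and 17.1 CPM. Zbtb32, a zinc finger repressor of T cell activation, had 23.9 and 16.5 CPM against 4.32, 3.80 and 2.55 CPM (log2 fold change 2.52 ± 0.30, adjusted p = 0.146 in edgeR, called under 5 of 14). These genes separated the groups in every library, as did Batf, Ikzf3 and Nfatc1 with smaller differences. Eomes had 224 and 42.1 CPM against 57.5, 16.0 and 8.77 CPM and overlapped, and Tcf7, a factor of memory-like cells, had 599 and 911 CPM against 896, 610 and 690 CPM and also overlapped. Id2 and Nr4a1 were lower in both KO libraries. Of 15 factors, 8 were higher (53.3%) and 2 lower (13.3%) without overlap, against 15.3% and 13.9% over all genes. DESeq2 called 5 higher (33.3%, against 2.36%) and 0 lower, and the median log2 fold change was 0.91.

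In the exhaustion signature used by the study, 96 of 104 genes were tested. Of these, 46 (47.9%) lay higher in KO without overlap and 8 (8.33%) lower, against 15.3% and 13.9% over all genes. DESeq2 called 23 higher (24.0%) and 1 lower (1.04%), against 2.36% and 0.926%, and the median log2 fold change was 0.65. The called gene that was lower was Ptger4, a receptor for prostaglandin E2, with 98.0 and 122 CPM in KO against 245, 266 and 287 CPM in WT. Its log2 fold change was −1.26 ± 0.16 (adjusted p = 0.146 in edgeR, called under 7 of 14). The list holds several receptors and factors described above, so that it is not a separate observation.

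Genes of the follicular helper program had the highest median of the lists, with 1.70 over 11 genes. The next highest were markers of other cells, with 1.39 for B cells and 1.38 for erythroid cells. Bcl6, the repressor that directs this program, had 25.4 and 31.5 CPM in KO against 8.74, 8.63 and 9.01 CPM in WT. The WT libraries were nearly equal and both KO libraries far above them (log2 fold change 1.70 ± 0.17, adjusted p = 0.146 in edgeR, called under 7 of 14). Cxcr5, the chemokine receptor that leads cells into B cell follicles, had 125 and 77.1 CPM against 31.2, 9.27 and 15.8 CPM. Il21 (chr3:37276908-37286785, minus strand), a cytokine that acts on B cells and CD8 T cells, had 367 and 143.5 CPM against 37.99, 14.1 and 22.0 CPM. It separated the groups with a log2 fold change of 3.38 ± 0.54 (adjusted p = 0.182 in edgeR, called under 5 of 14).

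Sh2d1a, which encodes the adaptor SAP, had 252 and 162 CPM against 106, 65.7 and 72.8 CPM. Pou2af1, Cebpa, Slamf6 and Ascl2 were also higher in both KO libraries. Icos overlapped, and Cd40lg, which encodes the CD40 ligand, lay lower in KO with 79.8 and 176 CPM against 185, 241 and 233 CPM. In all, 8 of 11 genes were higher (72.7%) and 1 lower (9.09%) without overlap, against 15.3% and 13.9% over all genes. DESeq2 called 7 higher (63.6%, against 2.36%) and 0 lower. Summed B cell markers were 25.1 and 27.2 CPM in KO and 5.79 to 16.96 CPM in WT over 10 genes, of which Fcer2a was under 3 counts in all 5 libraries. Of the 8 B cell markers tested, 5 were higher (62.5%) and 0 lower without overlap, against 15.3% and 13.9% over all genes. The part of these transcripts in the Tfh result was not tested.

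Among cytokines, Spp1 (chr5:104582165-104589235, plus strand), which encodes osteopontin, had the widest difference of the members named. It had 608 and 117 CPM in KO against 4.98, 2.42 and 2.72 CPM in WT. The groups were far apart, with a log2 fold change of 6.75 ± 0.79 (adjusted p = 0.146 in edgeR, called under 6 of 14). The chemokine gene Ccl3 had 521 and 47.8 CPM against 25.3, 9.74 and 3.17 CPM, and Ccl4 had 810 and 102 CPM against 75.4, 30.6 and 11.9 CPM. Il10, which encodes a suppressive cytokine, had 216 and 20.5 CPM against 15.5, 4.52 and 1.41 CPM. For these 3 genes the groups did not overlap, but KO replicate 2 was nearer to WT replicate 1 than to KO replicate 1. Of 8 cytokine and chemokine genes tested, 3 were higher without overlap (37.5%, against 15.3% over all genes) and 0 lower.

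Genes of anergy and of Treg are given next. Izumo1r, which encodes the folate receptor FR4, had 254 and 146 CPM in KO against 87.7, 27.6 and 70.8 CPM in WT, and Nt5e, which encodes CD73, had 210 and 139 CPM against 114, 78.4 and 108 CPM. Both markers of anergic CD4+ cells were higher in each KO library. Rnf128, a ubiquitin ligase of anergic cells, had 43.8 and 19.2 CPM against 17.6, 6.87 and 7.20 CPM. Of 15 genes of anergy and adenosine, 8 were higher (53.3%) and 2 lower (13.3%) without overlap, against 15.3% and 13.9% over all genes. DESeq2 called 2 higher (13.3%, against 2.36%) and 0 lower, and the median log2 fold change was 0.35.

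Foxp3, the factor that defines Treg, had 8.28 and 11 CPM in KO against 4.46, 3.28 and 4.43 CPM in WT. Both KO values were higher (log2 fold change 1.25 ± 0.28, adjusted p = 0.212 in edgeR, called under 1 of 14), but they lay near the 4.84 to 9.17 CPM of naive cells. Il2ra, which encodes CD25, had 13.4 and 21.5 CPM against 17.7, 40.3 and 27.7 CPM and overlapped. Of 12 genes of Treg and suppressive cytokines, 4 were higher (33.3%) and 0 lower without overlap, against 15.3% and 13.9% over all genes. DESeq2 called 2 higher (16.7%, against 2.36%) and 0 lower, and the median log2 fold change was 0.54. The sort removed Thy1.1+ cells, that is, the Treg that had been injected.

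Costimulatory receptors of the TNF receptor family were among the genes that were higher. Tnfrsf9, which encodes 4-1BB, had 128 and 38.2 CPM in KO against 18.1, 12.1 and 12.6 CPM in WT (log2 fold change 2.54 ± 0.49, adjusted p = 0.194 in edgeR, called under 4 of 14). Tnfrsf4, which encodes OX40, had 413 and 164 CPM against 104, 90.7 and 128 CPM. Cd27 had 349 and 177 CPM against 167, 86.1 and 83.8 CPM, and its KO replicate 2 barely exceeded WT replicate 1. Of 15 genes, 9 were higher (60%) and 2 lower (13.3%) without overlap, against 15.3% and 13.9% over all genes. DESeq2 called 5 higher (33.3%, against 2.36%) and 0 lower.

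Th1 genes, in contrast, lay lower in KO cells. Tbx21, which encodes T-bet, had 93.3 and 168 CPM in KO against 242, 341 and 206 CPM in WT. The groups did not overlap (log2 fold change −1.003 ± 0.33, adjusted p = 0.319 in edgeR, called under 2 of 14). Il12rb2, a chain of the IL-12 receptor, had 4.78 and 13.0 CPM against 23.6, 38.2 and 31.3 CPM, and Il18r1, a chain of the IL-18 receptor, had 36.6 and 83.2 CPM against 131, 188 and 108 CPM. KO replicate 1 was the lowest library for each of these genes.

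Ifng itself had 480 and 322 CPM in KO against 584, 646 and 390 CPM in WT, and the groups overlapped (log2 fold change −0.42 ± 0.27). Of 17 Th1 genes, 0 were higher and 10 lower (58.8%) without overlap, against 15.3% and 13.9% over all genes. DESeq2 called 0 higher and 3 lower (17.65%, against 0.926%), and the median log2 fold change was −0.43. In the Th1 signature used by the study, 8 of 72 tested genes were higher and 20 lower without overlap (11.1% and 27.8%), with a median of −0.16. Of that signature DESeq2 called 1 gene higher, Cxcr5 (1.39%, against 2.36% over all genes), and 7 lower (9.72%, against 0.926%).

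Genes of cytotoxic granules were divided. Gzma, which encodes granzyme A, had 12.2 and 49.4 CPM in KO against 120, 170 and 97.3 CPM in WT, and Ctsw, a cathepsin of cytotoxic cells, had 128 and 195 CPM against 333, 391 and 361 CPM. Gzmk, which encodes granzyme K, lay higher, with 276 and 102 CPM against 89.1, 50.8 and 31.1 CPM. Of 10 genes, 1 was higher (10%) and 4 lower (40%) without overlap, against 15.3% and 13.9% over all genes. Among Th17 genes, Il17a had 2.14 and 11.7 CPM against 3.20, 4.43 and 7.82 CPM and overlapped. Of the 10 tested, 1 gene, Il1r1, did not overlap and was higher (10%), which is below the 15.3% over all genes.

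Il7r, which encodes the receptor for the survival cytokine IL-7, had 63.5 and 162 CPM in KO against 446, 444 and 400 CPM in WT. The WT libraries were alike and both KO libraries far below them (log2 fold change −1.93 ± 0.40, adjusted p = 0.202 in edgeR, called under 4 of 14). Satb1, Cd44 and Foxo1 of the list of naive and memory genes were also lower in both KO libraries. Of the 13 genes of that list, 2 were higher (15.4%) and 4 lower (30.8%) without overlap, against 15.3% and 13.9% over all genes. DESeq2 called 0 higher and 2 lower (15.4%), against 2.36% and 0.926% over all genes. Of 11 early response genes, 1 was higher (9.09%) and 4 lower (36.4%) without overlap, against 15.3% and 13.9% over all genes. Among the lower ones was Egr1, with 319 and 383 CPM against 976, 611 and 694 CPM.

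**Figure D3:**
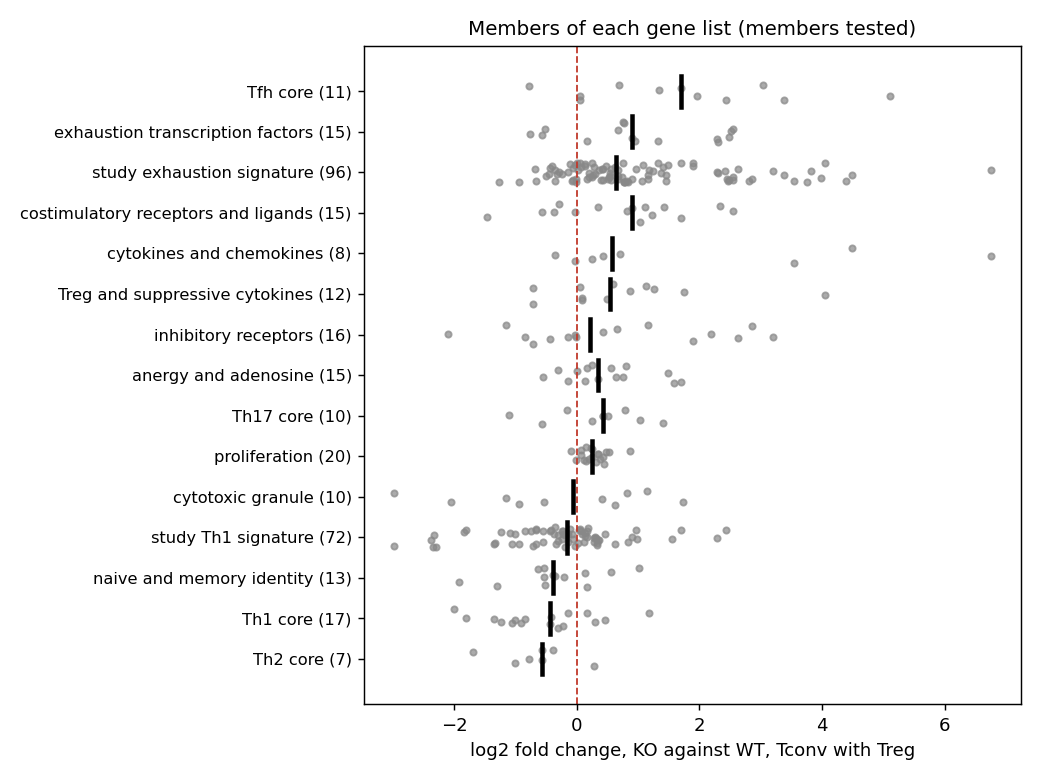
Each grey point is a tested gene of a list, placed at its edgeR log2 fold change of KO against WT in Tconv with Treg, with the number of tested genes beside the name of the list. Black bars are the medians, from 1.70 for the Tfh list to −0.57 for the Th2 list, and the dashed line is the median of all genes tested, 0.01.

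Over all genes, those with the lowest p that were higher in KO were Cybb, Bcl6, Oxsr1, Dnase1l3, Zbtb32, Spp1, Lbh, Serinc5, Slc41a1, Pou2f2, Rab32 and Bcl2a1a. Cybb, which encodes the catalytic subunit of the phagocyte NADPH oxidase, had 80.5 and 75.1 CPM in KO against 15.9, 19.4 and 18.1 CPM in WT. The libraries of each group were close to each other, and the adjusted p of 0.0529 was the lowest of all genes in edgeR (log2 fold change 2.13 ± 0.14, called under 7 of 14). Summed over the other 11 myeloid markers, the level was 230 and 91.6 CPM in KO and 108 to 118 CPM in WT, so that KO replicate 2 was below WT. None of the 12 markers was under 3 counts in all 5 libraries.

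Dnase1l3, a secreted nuclease, had 70.9 and 21.4 CPM in KO against 2.02, 1.74 and 1.72 CPM in WT (log2 fold change 4.66 ± 0.51, adjusted p = 0.146 in edgeR). The kinase gene Oxsr1 had 116 and 98.6 CPM against 47.5, 49.4 and 48.2 CPM. Pou2f2, which encodes the octamer factor OCT2, had 59.6 and 63.8 CPM against 34.5, 30.9 and 27.6 CPM. The spread within each group was small for Oxsr1 and Pou2f2, and KO replicate 1 was well above KO replicate 2 for Dnase1l3.

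The genes with the lowest p that were lower in KO were Ptger4, Sulf2, Rrad, Tent5a, Edaradd, Padi2, Dennd4a, Ly6c1, Dse, P2ry10, Dusp10 and Il4ra. Sulf2, which encodes a heparan sulfatase, had 1.89 and 2.93 CPM in KO against 14.7, 14.8 and 23.2 CPM in WT (log2 fold change −2.86 ± 0.35, adjusted p = 0.146 in edgeR). Edaradd, an adaptor of the ectodysplasin receptor, had 1.23 and 2.22 CPM against 11.2, 12.6 and 18.9 CPM. Il4ra, a chain of the IL-4 receptor, had 63.05 and 89.9 CPM against 158, 166 and 173 CPM. In each case both KO libraries were clearly below the lowest WT library.

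Values within the 2 sets of libraries kept the direction for most genes of these lists. For a gene whose groups do not overlap, both ratios must have the same sign, so that the sign is no separate support. That holds for Pdcd1, Lag3, Tox and Bcl6, and for 8 Tfh genes, 8 exhaustion factors, 46 signature genes and 10 Th1 genes counted below. In the ratio of KO replicate 1 to WT replicate 1 (log2 of CPM with 0.1 added), Pdcd1 was 2.69, Lag3 2.97, Tox 2.36 and Bcl6 1.53. In that of KO replicate 2 to the mean of WT replicates 2 and 3, the values were 2.01 for Pdcd1, 2.86 for Lag3, 2.31 for Tox and 1.83 for Bcl6. Both ratios were above 0 for 9 of 11 Tfh genes, 12 of 15 exhaustion factors and 61 of 96 genes of the exhaustion signature (63.5%), and for 5107 of all 17177 genes (29.7%). Both were below 0 for 12 of 17 Th1 genes (70.6%), against 4884 of all genes (28.4%). With the 2 sets as a block, edgeR called 56 of all 17177 genes higher and 10 lower. Among those called higher were 5 of 11 Tfh genes and 3 of 16 inhibitory receptors. This fit used the same 5 libraries, so that it is no separate support.

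**Figure D4:**
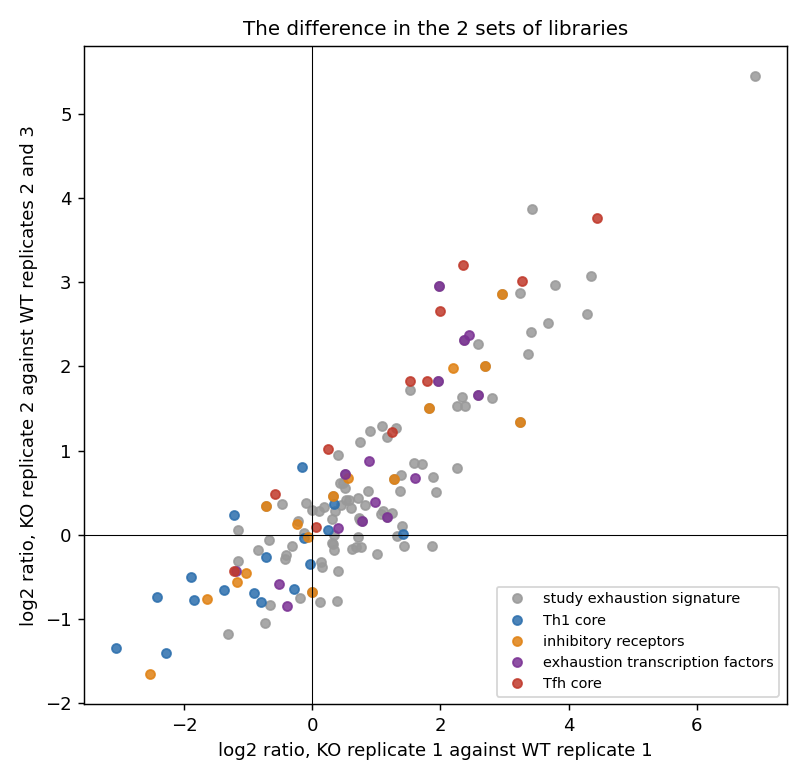
Each point is a gene of 1 of 5 lists, with the log2 ratio of KO replicate 1 to WT replicate 1 on the x axis and that of KO replicate 2 to WT replicates 2 and 3 on the y axis. Of the Tfh genes 9 of 11 lie at the upper right, above 0 on both axes, and of the Th1 genes 12 of 17 lie at the lower left, below 0 on both axes. Genes whose groups do not overlap lie in these corners by construction.

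Markers of other cells were summed in each library. Those of CD8 T and NK cells other than Eomes reached 11.6 and 11.3 CPM in KO and 6.84 to 9.22 CPM in WT over 5 genes, and those of dendritic cells 71.4 and 166 CPM against 32.9 to 165 CPM over 9 genes. Plasma cell markers summed to 335 and 246 CPM against 125 to 236 CPM over 6 genes, of which Tnfrsf17 was under 3 counts in all 5 libraries. Their part in the results above was not tested.

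Of 17 tested interferon-stimulated genes, 2 were higher (11.8%) and 4 lower (23.5%) without overlap, near the 15.3% and 13.9% over all genes. Of 7 Th2 genes 0 were higher and 3 lower (42.9%) without overlap, against 15.3% and 13.9% over all genes. Proliferation genes did not separate the groups, with 1 of 20 higher (5%) and 0 lower without overlap. Their summed level was 2444 and 2205 CPM in KO and 1234, 2003 and 2463 CPM in WT, with WT replicate 1 as the lowest. Of 346 tested Zfp genes, a family often found in heterochromatin, 71 were higher and 40 lower without overlap (20.5% and 11.6%), and DESeq2 called 8 higher and 0 lower (2.31%), which is close to the share over all genes. The median of the Zfp genes was 0.05.

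To see whether the difference between genotypes depended on Treg, it was set beside that of Tconv transferred without Treg. In those cells edgeR called 7 of 16015 genes (0.0437%), or 74 with the replicate number as a block, and the interaction of genotype and Treg gave 0 of 17833 genes (0%) with 667 at an unadjusted p under 0.05. DESeq2 called 16 of these 17833 genes for the interaction. Pdcd1 had 43.4, 168 and 92.5 CPM in KO Tconv without Treg against 17.9, 25.6 and 52.3 CPM in WT Tconv, and Lag3 had 1.98, 15.1 and 14.5 CPM against 0.864, 1.12 and 3.10 CPM. Both overlapped in those cells, as KO replicate 1 was within the range of WT. Within each equally numbered pair of libraries, KO was above WT for both genes, a pairing that the main fit did not use. The interaction was 0.95 for Pdcd1 and 0.55 for Lag3 on the log2 scale, with unadjusted p of 0.325 and 0.646 in edgeR.

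Bcl6 differed more between the conditions, as it had 7.85, 11.2 and 10.7 CPM in KO Tconv without Treg against 8.64, 6.72 and 9 CPM in WT. Its interaction was 1.39 on the log2 scale, the lowest unadjusted p in this direction among named genes (0.00034 in edgeR), but it was not called over all genes. Klrg1 had 60.1, 86.9 and 84.6 CPM in KO without Treg against 86.5, 87.0 and 70.9 CPM in WT, so that its low level was seen in KO cells transferred with Treg (interaction −2.04, unadjusted p = 0.000691 in edgeR). Edaradd and Scart2 followed Klrg1 in direction, and Hdac7, which encodes a histone deacetylase, followed Bcl6. DESeq2 called Bcl6, Klrg1, Edaradd and Scart2 for the interaction, and edgeR called none of them. The 16 calls of DESeq2 also held much larger log2 values, such as −23.5 for Exosc6, −24.4 for Pgk1-rs7 and 9.12 for Trav6d-7.

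**Figure D5:**
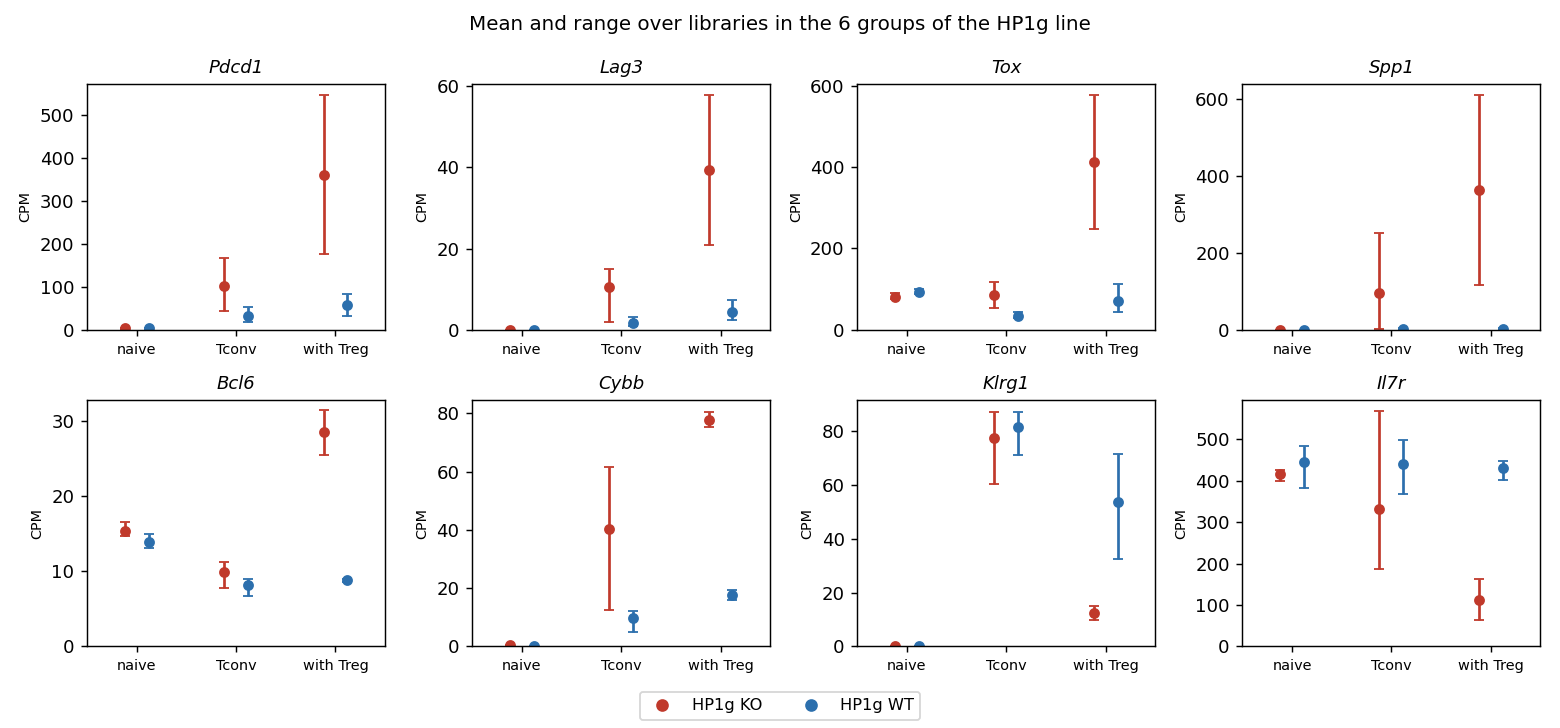
The level of 8 genes in CPM is plotted for naive cells, Tconv without Treg and Tconv with Treg, with the mean of the libraries as a point and their lowest and highest value as bars (3 libraries a group, 2 for KO with Treg). Bcl6 and Klrg1 differ between genotypes with Treg and overlap without Treg. Cybb is higher in KO cells in both conditions, but without Treg its KO replicate 1 is only narrowly above WT.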

How the data were processed

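RNA was amplified with a SMART-Seq kit from sorted cells and sequenced with paired-end reads. The authors trimmed the reads, mapped them to the GRCm39 build with STAR, using Ensembl gene models, and estimated gene counts with Salmon. The deposited values are estimated counts per gene, unscaled and unfiltered, of which 82.9% were whole numbers. Counts of genes with near-identical copies or overlapping neighbours are therefore less certain.

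Libraries were assigned by title, which gave 12 groups of 3. Estimated counts were rounded. Genotypes were compared with the quasi-likelihood test of edgeR (edgeR 4.0.16, R 4.3.3) with TMM, filterByExpr and robust estimation on 2 KO and 3 WT libraries, with Benjamini-Hochberg adjustment over all genes tested and a call at an adjusted p under 0.05 and an absolute log2 fold change above 1. DESeq2 1.42.0, the tool of the study, was an alternative. The scripts were tested on simulated counts. SE is that of the edgeR log2 fold change, derived as its absolute value divided by the square root of the F statistic of the test. CPM use TMM factors over the 17 kept libraries of the line.

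Named genes were the HP1 genes, the first members and those with the lowest p of each list, the 12 genes with the lowest p in each direction that averaged 5 CPM or more and did not overlap, and 5 in each direction of the interaction. Segments of antigen receptors, predicted or RIKEN genes and pseudogenes were not named. Members and lists were chosen with earlier results of these data known. Of the exhaustion and Th1 signatures, 12 genes and 1 gene were matched by a synonym. Tested were DESeq2, RLE factors, no filter, no fold threshold, all 17 libraries, the 4 grafted groups, a replicate block, each library left out in turn and the omitted KO library restored. DESeq2 over 17 libraries and the ratios within sets of libraries were added after the data were seen. Deviations from the group means correlated at 0.409 and 0.209 in the 2 equally numbered pairs with Treg, and at 0.449, 0.119 and 0.331 in the 3 pairs without Treg. These values do not set the conditions apart. The main fits used no pairing in either condition, and a block was an alternative only, with 30 or 66 calls with Treg and 74 without Treg.

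Positions come from the GENCODE annotation of GRCm39. The chi-square statistic per gene was 224 between the KO libraries and 53.6 to 76.0 between WT libraries. These values were far above sampling noise, so that no library was counted as a copy.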

Additional observations from a re-analysis of the deposited data

Results flagged for a closer look

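The KO library left out for quality, replicate 3 with Treg, had a signal above all 3 WT libraries with Treg for 5 of 16 inhibitory receptors, 10 of 15 exhaustion factors and 7 of 11 Tfh genes. It lies outside the comparisons, and it differed from all other libraries of the line, with 18623 genes detected, 37.4% Trbv19 among its Trbv transcripts and 0.0574% of its counts in ribosomal protein genes. Its CPM came from a separate scaling that included it, and over all genes tested summed to 2322000, against 980300 to 1016000 in WT. The Th1 signature of the study summed to 46920 CPM in it, against 15210 to 17730 CPM in WT. How many of all genes lay above WT in this library was not counted, so that the counts of the lists have no reference. What these differences contribute to its values was not tested.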

How the results depend on the processing

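The count of genes called for KO against WT with Treg was 0 in edgeR, also with RLE factors, with no fold threshold and with the left-out library put back. It was 565 with DESeq2, 181 with no filter, 307 with all libraries of the line, 30 with the replicate block, 66 with the 2-level replicate block, 35 with the 4 grafted groups and 689 with DESeq2 over all libraries of the line. Leaving out each library gave 0 to 362, with 362 without KO replicate 2 and 0 without any of the others. The interaction had 16 calls with DESeq2, 1 with no filter and 1 with all libraries of the line, both times Trav6d-7. Leaving out each library gave 0 to 53, with 53 without KO replicate 2 with Treg, 1 (Trav6d-7) without KO replicate 1 with Treg and 1 (Gm12896) without KO Tconv replicate 2. Without Treg there were 7 calls, and 233 with DESeq2, 60 with no filter, 20 with all libraries of the line and 74 with the replicate block, and 0 to 12 when each library was left out, with 12 without KO replicate 1, 2 without WT replicate 1 and 0 without any other. With 1 KO library left, it is assumed to vary like the WT libraries. The cause of these differences was not tested.

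Of 910 log2 fold changes of 65 named genes under the alternatives, 19 in 10 genes turned their sign. With the left-out library put back, Padi2 was 3.92, Cd160 0.25, Cd244a −0.066, Nr4a3 1.23 and Irf4 −0.092. With the replicate block, Cd160 was 0.067 and Cd5 0.057. Leaving out each library gave −0.44 to 0.095 for Cd160, −0.16 to 0.049 for Cd5, −0.065 to 0.21 for Icos, −0.25 to 1.33 for Nr4a2, −0.31 to 0.32 for Tcf7 and −0.088 to 0.051 for Vsir. Of the 65 genes, 42 were called under at least 1 alternative. At this depth 3 counts came to between 0.0466 and 0.0678 CPM in the 5 libraries, below which a level was not measurable.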
